A study of Homo sapiens with 8 samples.

Results

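Of the genes counted in 8 RNA-seq libraries of NB4 cells, 44 encode a part of the proteasome or a factor that assembles it. They were found by symbol, as PSM followed by a letter from A to G and a number, among 37526 gene names listed for every library. Of 48 matching symbols, 44 had at least 100 counts over the 8 libraries, and these 44 are the genes described. NB4 is a human acute promyelocytic leukemia line that carries the PML/RARα fusion. The libraries fall into 4 groups of 2, namely shNC, shKDM3B, shNC_ATRA and shKDM3B_ATRA. All cells were stably transduced with a lentiviral shRNA vector, which in shNC is a control (empty according to the labels, scrambled according to the methods) and in shKDM3B is directed against the histone demethylase KDM3B. The ATRA groups received 1 µM all-trans retinoic acid, which makes these cells differentiate along the granulocytic path, for 24 or 48 hours (the sources do not say which). Which hairpin was used, and whether the libraries of a group came from separate cultures, is not given, so the p-values measure only the spread between these libraries.

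The proteasome degrades proteins that carry ubiquitin chains. Its 20S core is a barrel of stacked alpha and beta rings, in which only PSMB5, PSMB6 and PSMB7 cut peptide bonds. Under interferon, and in cells of the immune system, these are replaced in new particles by PSMB8, PSMB9 and PSMB10, giving the immunoproteasome, whose peptides are well suited to MHC class I molecules. The 19S cap recognises and unfolds the substrate with a base that holds a ring of ATPases and a lid that removes ubiquitin. PSME1 and PSME2 form PA28, another cap, which opens the core without ATP. Dedicated chaperones assemble the rings and the base.

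With ATRA, PSMB10, PSME1 and PSME2 rose 2.50- to 3.70-fold in both shNC and shKDM3B cells, whereas PSMB5, PSMB6 and PSMB7 passed the call in no comparison. A gene was called at an unadjusted P-value under 0.05 and a fold change of at least 1.5 by edgeR. Knockdown of KDM3B without ATRA gave 0 calls among the 44, where 3.48% of all genes tested were higher and 3.53% lower. With ATRA it gave 0 higher and 1 lower, against 2.42% and 4.37% of all genes. The 44 genes together held between 0.610% and 0.732% of the counts of each library.

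Between 9708739 and 33017787 counts per library fell on genes. Levels are given as CPM, the counts scaled to a fixed total per library by TMM over all 8 libraries on the shared names, and fold changes come from edgeR fits of each pair of groups. KDM3B stood at 187 and 188 CPM in shNC, 76.3 and 86.2 in shKDM3B, 196 and 121 in shNC_ATRA, and 52.5 and 57.4 in shKDM3B_ATRA. Of 6 promyelocytic markers, MPO ranged from 4285 to 9518 CPM in the 4 untreated and from 616 to 3128 CPM in the 4 ATRA libraries, CTSG from 105 to 149 and from 1.71 to 4.11 CPM, and CD33 from 63.0 to 110.4 CPM over all 8, but ELANE, PRTN3 and AZU1 stayed at or below 1.47 CPM in every library. Of 4 markers of other blood cells, MS4A1 and HBB were at 0 in all 8 libraries and CD3E was at most 0.553 CPM, while NKG7 ranged from 14.9 to 48.7 CPM. Of 4 granulocytic markers, ITGAM ranged from 9.86 to 26.1 CPM in the untreated and from 104 to 217 CPM in the ATRA libraries, CEBPE from 51.2 to 74.3 and from 259 to 427, NCF1 from 4.68 to 16.4 and from 359 to 1132, and TGM2 from 0 to 0.0307 and from 2268 to 5836. Among the libraries 3 stood apart, since 50.02% of the reads of shNC_ATRA replicate 2 fell outside genes, as did 51.45% and 51.05% in shKDM3B_ATRA, whereas the other 5 had 8.49% to 9.62%.

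The levels of the 44 genes, taken per kilobase of the canonical transcript and averaged over the 8 libraries, spanned 2.81 to 256 CPM per kb with a median of 67.9. PSMB4, a structural subunit of the beta ring, was the highest and PSMD9, a chaperone of the base, the lowest. For 8 genes, 10% or more of the exon length is overlapped by another gene of GENCODE v44, and counting by gene can lose such reads. They include PSMA2 (100% overlapped), PSMA6 (81.4%), PSMA1 (67.0%), PSMB10 (56.1%) and PSMD9 (28.8%), each overlapped on its own strand. All 5 were among the 9 lowest genes per length, at 8.96, 5.34, 14.6, 21.1 and 2.81 CPM per kb, and the part of the overlap in these levels was not tested. The study's methods name a RefSeq annotation for counting, and whether it holds the overlapping genes was not tested. PSMC1 (83.2%), PSMD7 (51.6%) and PSMC5 (13.7%) are overlapped on the opposite strand, which the library kit does not tell apart. Across the 36 genes with less overlap, the span was 16.4 to 256 CPM per kb.

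Within the 20S core, the 4 alpha subunits with less than 10% overlap lay between 47.6 (PSMA5) and 206 (PSMA7) CPM per kb. The constitutive catalytic subunits PSMB6, PSMB5 and PSMB7 averaged 90.1, 124 and 182 CPM per kb. The ATPases of the 19S base lay between 45.5 (PSMC4) and 139 (PSMC5) CPM per kb and the 8 lid subunits between 31.8 (PSMD12) and 140.4 (PSMD7). The structural beta subunit PSMB3 averaged 17.8 CPM per kb, against 63.2 for PSMB2 and 256 for PSMB4, with no overlapping gene. All 182 stretches of 100 bases in its canonical exons also occur on an alternate contig of hg38, where a read would have more than 1 place to align if the index held that contig, which was not tested.

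Of the 3 immunoproteasome subunits, 2 could not be read from these counts. PSMB8 had 1 count in all 8 libraries and PSMB9 had 2, so both fell short of the minimum, as did PSMA8 with 0 counts and PSMB11, the subunit of the thymus, with 1. PSMB8 (chromosome 6, 32840717 to 32844679, minus strand, GENCODE v44 on hg38) and PSMB9 (32844136 to 32859851, plus strand) are neighbours in the MHC region. Each of their 530 and 455 exonic stretches of 100 bases is also present on at least 1 alternate contig of hg38. For each gene, 7 such contigs hold 1 or more of the stretches. Of the 69 protein-coding genes within 1 Mb of PSMB9, 46 (66.7%) had no more than 8 counts over all libraries, as against 303 of 849 (35.7%) on the rest of chromosome 6. TAP1, the peptide transporter gene beside PSMB9, was at 0 in every library, and TAPBP was at or below 0.402 CPM. Low counts in this stretch were thus not limited to the immunoproteasome. Whether the alignment index held the alternate contigs was not tested, and the counts of PSMB8 and PSMB9 give no level for either gene.

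The first question was which proteasome genes change when control cells are treated with ATRA. Between shNC_ATRA and shNC, 5 of the 44 genes were higher and 1 lower, where 15.0% of all 12429 genes tested were higher and 10.8% lower. At an adjusted p under 0.05, 3 were higher and 0 lower, against 7.84% and 5.06% of all genes. At an unadjusted P-value under 0.05 alone, 7 were higher and 1 lower, against 15.9% and 11.7%. DESeq2 called 5 higher and 1 lower under the main rule, against 10.3% and 6.53% of the genes given to it. The median log2 fold change of the 44 genes was 0.09 and that of all genes 0.02. In such bulk samples, a change in the share of cells that express a gene and a change in its RNA per cell cannot be told apart.

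PSMB10, which takes the place of PSMB7 in the immunoproteasome, stood at 11.6 and 9.86 CPM in shNC and at 41.6 and 31.1 CPM in shNC_ATRA. Both treated libraries lay above both untreated ones. The log2 fold change was 1.79 (SE 0.26, adjusted p = 0.00522 by edgeR with Benjamini-Hochberg adjustment). PSME2, a subunit of PA28, rose from 104 and 84.6 CPM to 341 and 342 CPM, a log2 fold change of 1.89 (SE 0.22, adjusted p = 0.00201 by edgeR). Its partner PSME1 rose from 116 and 102 CPM to 230.4 and 299.9 CPM (log2 fold change 1.32, SE 0.23, adjusted p = 0.0108 by edgeR). These were the 3 genes past the adjusted threshold. The log2 fold changes without shNC_ATRA replicate 2, where the 3 remaining libraries had 8.83% to 9.36% of reads outside genes, were 1.96 for PSMB10, 1.86 for PSME2 and 1.09 for PSME1, and all 3 were still called.

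The constitutive catalytic subunits moved less. PSMB5 stood at 131 and 130.15 CPM in shNC and at 109 and 117 CPM in shNC_ATRA, a log2 fold change of -0.18 (SE 0.20). PSMB6 was at 87.4 and 78.2 CPM without and 84.2 and 74.6 CPM with ATRA (log2 fold change -0.03, SE 0.20). PSMB7 was at 188 and 179 CPM without and 188 and 194 CPM with ATRA (0.09 on the log2 scale, SE 0.20). Both treated libraries lay below the untreated ones for PSMB5 and above them for PSMB7, and none of the 3 was called. The level of PSMB10 relative to PSMB7, which is free of library scaling, was 0.0625 and 0.0554 per length in shNC and 0.223 and 0.161 in shNC_ATRA. This ratio was 3.22-fold higher with ATRA, with an exact two-sided permutation p of 0.333, the smallest that 2 against 2 libraries can give.

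Among the alpha subunits, which form the outer rings and gate the core, PSMA4 was called. It stood at 395 and 331 CPM in shNC and at 529.8 and 776 CPM in shNC_ATRA (log2 fold change 0.88, SE 0.26, adjusted p = 0.0675 by edgeR). The treated libraries differed more from each other than the untreated ones, and without shNC_ATRA replicate 2 the log2 fold change was 0.55 and the call was lost. It was lost too without shNC replicate 1 or 2, at log2 fold changes of 0.99 and 0.75. PSMA3 and PSMA5 had log2 fold changes of 0.58 and 0.55 and were not called, and the 7 alpha subunits ranged from -0.37 (PSMA1) to 0.88.

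One ATPase of the base, PSMC2, rose from 163 and 156 CPM to 258 and 257 CPM. The log2 fold change was 0.73 (SE 0.20, adjusted p = 0.0530 by edgeR), and the call was lost without shNC replicate 1 or 2, although the log2 fold change stayed at 0.73 and 0.69. In those fits 6.79% and 6.94% of all genes were called higher, against 15.0% with all 4 libraries. The other 5 ATPases lay between -0.09 and 0.14. None of the 8 lid subunits (-0.15 to 0.315), of the 3 other base subunits (-0.29 to 0.33) or of the 7 assembly chaperones (-0.45 to 0.30) was called. The largest fall apart from PSMB3 was that of PSMG4, a chaperone of the alpha ring, from 29.4 and 33.7 CPM to 26.3 and 18.8 CPM (log2 fold change -0.45, SE 0.25, not called). It became -0.71 without shNC_ATRA replicate 1, where PSMG4 was called lower, and -0.26 without shNC_ATRA replicate 2. PSME3 and PSME4, the subunits of other caps, had log2 fold changes of 0.16 and -0.30, and PSMF1, an inhibitor of the core, 0.13.

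PSMB3 was the gene called lower, from 10.1 and 17.3 CPM to 6.01 and 6.36 CPM (log2 fold change -1.11, SE 0.37, adjusted p = 0.0980 by edgeR). Without shNC replicate 2 the log2 fold change was -0.69 and the call was lost.

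The same comparison in knockdown cells gave more calls over all genes. Between shKDM3B_ATRA and shKDM3B, 8 of the 44 genes were called higher and 2 lower, where 24.0% of all 12756 genes tested were higher and 18.3% lower. At an adjusted p under 0.05, 9 were higher and 5 lower, against 27.5% and 22.5% of all genes, and at an unadjusted P-value alone 10 and 8, against 30.7% and 25.9%. The median log2 fold change was 0.06 for the 44 genes and 0.04 for all genes. Both ATRA libraries of this comparison are among those with about as many reads outside genes as on them, and both untreated ones are not, so treatment and this difference cannot be told apart here.

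PSME2 stood at 78.6 and 73.8 CPM in shKDM3B and at 249 and 268 CPM in shKDM3B_ATRA (log2 fold change 1.82, SE 0.12, adjusted p = 3.10e-06 by edgeR). PSMB10 rose from 8.63 and 7.82 CPM to 27.4 and 26.6 CPM (1.77 on the log2 scale, SE 0.18). PSME1 rose from 97.4 and 94.2 CPM to 233 and 243 CPM (1.37 on the log2 scale, SE 0.12). For all 3, the libraries of the groups were well apart, and each was called under all 10 alternative settings. PSMB5 went from 162 and 147 CPM to 117 and 124 CPM (log2 fold change -0.31, SE 0.12), PSMB6 from 74.1 and 78.9 CPM to 56.1 and 60.6 CPM (-0.34, SE 0.13) and PSMB7 from 163 and 189.7 CPM to 158 and 169 CPM (-0.06, SE 0.13). None of these 3 reached 1.5-fold. The ratio of PSMB10 to PSMB7 per length was 0.0532 and 0.0415 in shKDM3B and 0.175 and 0.159 in shKDM3B_ATRA, a 3.54-fold difference (exact two-sided permutation p = 0.333, the smallest possible).

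In these cells 4 of the 7 alpha subunits were called higher (24.0% of all genes), namely PSMA4 (log2 fold change 1.00, SE 0.11), PSMA3 (0.87, SE 0.14), PSMA2 (0.73, SE 0.19) and PSMA5 (0.61, SE 0.12). PSMA4 stood at 342 and 337 CPM in shKDM3B and at 661 and 651 CPM in shKDM3B_ATRA, so that the groups lay far apart. PSMA7 was lower by 0.43 on the log2 scale (adjusted p = 0.0307 by edgeR), short of 1.5-fold. PSMC2, called higher in shNC, was higher by 0.48 here (adjusted p = 0.00991 by edgeR) and PSMD8 of the lid lower by 0.46 (adjusted p = 0.0187 by edgeR), both also short of it. Thus 4 genes, PSMA4, PSMB10, PSME1 and PSME2, were called higher with ATRA in both backgrounds, that is 4 of the 5 in shNC and 4 of the 8 in shKDM3B. Over all 11968 genes tested in both backgrounds, 82.2% of the genes called higher in shNC were also called higher in shKDM3B, and 61.1% the other way.

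Both genes called lower encode chaperones that pair up in the assembly of the alpha ring. PSMG4 fell from 31.5 and 30.3 CPM to 16.5 and 19.7 CPM (log2 fold change -0.72, SE 0.17, adjusted p = 0.00639 by edgeR). PSMG3 fell from 65.9 and 61.2 CPM to 35.9 and 40.0 CPM (log2 fold change -0.69, SE 0.14, adjusted p = 0.00321 by edgeR). PSMG1, of the other chaperone pair, passed the adjusted threshold at -0.45 (SE 0.14), and PSMD10, a chaperone of the base, at 0.47 (SE 0.14). Chaperones thus lay on both sides of 0, with 2 of 7 above and 5 below.

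The call of PSMB3 rested on 1 library. It stood at 10.4 and 6.23 CPM in shKDM3B and at 4.42 and 47.5 CPM in shKDM3B_ATRA, which spread on both sides of the untreated values. The log2 fold change of 1.71 (SE 0.75) became -0.85 without shKDM3B_ATRA replicate 2.

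The response to ATRA was then compared between the backgrounds, as an interaction over the 8 libraries. Of the 44 genes, 0 had an adjusted p under 0.05 and 0 an unadjusted P-value under 0.05 by edgeR, where 0% and 4.49% of all 13528 genes did, and DESeq2 gave 0 at an adjusted p under 0.05, against 24 of the 21090 genes given to it. The difference between the log2 responses was -0.04 (SE 0.28) for PSMB10, 0.03 (SE 0.23) for PSME1 and -0.09 (SE 0.21) for PSME2. The lowest unadjusted P-values were those of PSMG3 and PSMB3, at differences of -0.45 (SE 0.20) and 2.80 (SE 1.27), and the latter gene has 1 shKDM3B_ATRA library far above the other. For PSMB5, PSMB6 and PSMB7 it was -0.15 (SE 0.18), -0.33 (SE 0.20) and -0.17 (SE 0.19). With 2 libraries per group, differences near these standard errors were not detectable.

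The promoters of the genes that rose in both backgrounds were read from the RefSeq promoter table for GRCh38.p14, which gives 250 bases before and 50 after each annotated start and held 38 of the 44 genes in 46 entries. Elements bound by interferon regulatory factors hold pairs of GAAA, and GAAANNGAA was searched on both strands. It was found in 8.11% of all 35116 entries and in 15.2% of the 46, which belong to PSMA4, PSMB4, PSMB10, PSMC2, PSME1, PSME2 and PSMG4. These 7 include the 5 genes called higher with ATRA in shNC cells but 4 of the 8 called higher in shKDM3B cells, where PSMA2, PSMA3, PSMA5 and PSMB3 had no match. They also include PSMB4, with log2 responses of 0.08 in shNC and -0.22 in shKDM3B, and PSMG4, which fell in shKDM3B. The run GAAAGCGAA, chosen after the matches were seen, was in 0.268% of all entries and in 4 of the 46. These are shown because 3 belong to genes called higher in both backgrounds and the other to a gene that fell. PSMB10 is shown from chr16:67936801-67937100 (minus strand), PSME1 from chr14:24135944-24136243 (plus), PSME2 from chr14:24146561-24146860 (minus) and PSMG4 from chr6:3258697-3258996 (plus). Each is written 5′ to 3′ on the strand of the gene, and capitals mark the match.
PSMB10: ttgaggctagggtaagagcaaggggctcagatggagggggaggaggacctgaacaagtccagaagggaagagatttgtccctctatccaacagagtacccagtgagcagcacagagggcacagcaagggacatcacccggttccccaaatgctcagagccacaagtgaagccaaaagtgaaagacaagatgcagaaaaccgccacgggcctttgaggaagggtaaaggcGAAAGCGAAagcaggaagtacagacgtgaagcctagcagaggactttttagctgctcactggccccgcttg
PSME1: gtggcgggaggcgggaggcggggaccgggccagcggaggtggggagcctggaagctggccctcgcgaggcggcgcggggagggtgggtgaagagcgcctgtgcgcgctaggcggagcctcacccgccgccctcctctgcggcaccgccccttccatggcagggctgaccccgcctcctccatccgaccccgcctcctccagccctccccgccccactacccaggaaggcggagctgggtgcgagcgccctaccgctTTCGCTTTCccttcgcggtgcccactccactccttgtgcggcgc
PSME2: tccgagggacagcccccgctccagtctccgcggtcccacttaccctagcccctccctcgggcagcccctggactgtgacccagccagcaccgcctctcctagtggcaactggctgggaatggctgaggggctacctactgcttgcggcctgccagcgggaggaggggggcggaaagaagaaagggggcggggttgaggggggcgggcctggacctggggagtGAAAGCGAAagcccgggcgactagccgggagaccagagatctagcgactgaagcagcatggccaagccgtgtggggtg
PSMG4: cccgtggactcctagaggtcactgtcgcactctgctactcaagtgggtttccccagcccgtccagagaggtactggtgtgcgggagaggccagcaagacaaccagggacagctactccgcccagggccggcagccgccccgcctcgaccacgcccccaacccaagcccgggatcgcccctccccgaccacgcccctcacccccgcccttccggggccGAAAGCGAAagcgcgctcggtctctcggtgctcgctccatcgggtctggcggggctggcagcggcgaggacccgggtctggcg
The run began 21 bases before the annotated start in PSMB10, 28 in PSME2 and 33 in PSMG4, and in PSME1 it lay 6 bases after the start on the opposite strand, as TTCGCTTTC. PSMA4, PSMC2 and PSMB4 matched with other middle letters. A match says only that these letters are present, and binding was not measured.

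Other motifs were searched in the same entries, on both strands and with matches of different motifs allowed to overlap. CCAAT was in 39.1% of the 46 entries and 34.6% of all. TGACNNNGC, the core of the antioxidant element bound by NRF1 and NRF2, was in 30.4% and 13.3%, and CCGGAAG, the ETS core, in 30.4% and 10.3%. CACGTG, the E-box, was in 6.52% and 7.26%, and GGGNNNNCC, for NF-κB, in 52.2% and 52.8%.

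The next question was what knockdown of KDM3B does to these genes without ATRA. Between shKDM3B and shNC, edgeR called 0 of the 44 genes higher and 0 lower, where 3.48% of all 13855 genes were higher and 3.53% lower. At an unadjusted P-value under 0.05 without a fold minimum the counts were 0 and 0, against 5.66% and 4.53% of all genes, and at an adjusted p under 0.05 they were again 0 and 0, against 0% and 0.0217%. DESeq2 called 0 higher and 1 lower (PSMB3), against 1.76% and 1.68% of the genes given to it. Of the 44 log2 fold changes, 34 were below 0, as were 50% of those of all genes, and the median was -0.08 (all genes, 0.00). Markers of maturation differed in this comparison. MPO was called higher (log2 fold change 0.89, SE 0.15), and ITGAM (-0.90, SE 0.25) and NCF1 (-1.16, SE 0.31) lower, as was NKG7 (-0.89, SE 0.22), a marker of natural killer cells, while CTSG (0.33) and CEBPE (0.04) were not called. Their part in the values of the proteasome genes was not tested.

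No gene reached the threshold in either direction, so the following values are given as measured. The lowest log2 fold changes were those of PSMB3, at -0.73 (SE 0.34), and PSMB10, at -0.39 (SE 0.23), and the highest those of PSMD5, a chaperone of the base, at 0.31 (SE 0.16), and PSMB5, at 0.24 (SE 0.14). PSMB3 stood at 10.1 and 17.3 CPM in shNC and at 10.4 and 6.23 CPM in shKDM3B, so the groups overlapped. Its log2 fold change ran from -1.14 without shKDM3B replicate 1 to -0.29 without shNC replicate 2, and it was called lower in 5 of 10 alternatives. PSMD5 stood at 45.5 and 54.2 CPM in shNC and at 61.8 and 61.7 CPM in shKDM3B. PSMB10, PSME1 and PSME2 were each lower in both shKDM3B libraries than in both shNC libraries, by log2 fold changes of -0.39, -0.18 (SE 0.15) and -0.31 (SE 0.16). All 6 ATPases of the base were below 0 (-0.28 to -0.0046), and the 8 lid subunits ranged from -0.23 to 0.08. The ratio of PSMB10 to PSMB7 differed by -0.32 on the log2 scale (exact two-sided permutation p = 0.333, the smallest possible).

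With ATRA, knockdown gave 1 call. Between shKDM3B_ATRA and shNC_ATRA, 0 of the 44 genes were higher and 1 lower by edgeR, where 2.42% of all 14281 genes were higher and 4.37% lower. At an unadjusted P-value under 0.05 alone, 0 were higher and 6 lower, against 3.93% and 5.76% of all genes. At an adjusted p under 0.05 the counts were 0 and 0, as for all genes (0% and 0%), and DESeq2 called 0 higher and 1 lower under the main rule, against 1.74% and 2.78%. The median log2 fold change was -0.16, against 0.03 for all genes, with 29 of the 44 below 0 and 46.9% of all genes below 0. Here too MPO was called higher (1.99 on the log2 scale, SE 0.24), and ITGAM (-0.82, SE 0.21), NCF1 (-1.19, SE 0.29) and TGM2 (-1.19, SE 0.15) lower, as was NKG7 (-1.12, SE 0.34), while CTSG (-0.79) and CEBPE (-0.48) were not called. Their part in the following values was not tested.

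The gene called was PSMG3, at 57.3 and 57.9 CPM in shNC_ATRA and 35.9 and 40.0 CPM in shKDM3B_ATRA (log2 fold change -0.60, SE 0.13, adjusted p = 0.502 by edgeR). The groups did not overlap, but the fold of 1.51 lies just past the minimum, and the call was lost without shKDM3B_ATRA replicate 1 or 2, at log2 fold changes of -0.52 and -0.67, in fits that called 0.624% and 1.45% of all genes lower. With library size alone it was lost too, at -0.57, just short of 1.5-fold. The other 5 at an unadjusted P-value under 0.05 were PSMD8, PSMB4, PSMB6, PSMC4 and PSME2, with log2 fold changes between -0.54 and -0.40. PSMD8, of the lid, stood at 165 and 127 CPM in shNC_ATRA and at 98.1 and 103 CPM in shKDM3B_ATRA (-0.54, SE 0.18). PSME2 stood at 341 and 342 CPM against 249 and 268 CPM (-0.40, SE 0.11), and PSMB6 at 84.2 and 74.6 CPM against 56.1 and 60.6 CPM (-0.44, SE 0.13). In each of these the knockdown libraries were the lower ones.

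Without shNC_ATRA replicate 1, the 3 remaining libraries all had about as many reads outside genes as on them. That fit, in which the lone shNC_ATRA library is assumed to vary like the others, called 1 of the 44 genes higher (PSMB3) and 1 lower (PSMG3), against 8.78% and 8.19% of all genes, with a median log2 fold change of -0.18. PSMG3 was at -0.60 in it, PSME2 at -0.39, PSMD8 at -0.33 and PSMB10 at -0.19. Without shNC_ATRA replicate 2 instead, 5 genes were called lower, against 13.3% of all genes, with PSMD8 at -0.72 and PSMB10 at -0.62 among them, and 1 higher, against 23.2% of all genes.

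PSMB10 was at 41.6 and 31.1 CPM in shNC_ATRA and at 27.4 and 26.6 CPM in shKDM3B_ATRA (log2 fold change -0.43, SE 0.22), and PSME1 at 230.4 and 299.9 CPM against 233 and 243 CPM (-0.15, SE 0.17). The former groups did not overlap and the latter did. PSMB3 had the highest log2 fold change, 2.07 (SE 1.21), which became -0.47 without shKDM3B_ATRA replicate 2. PSME4, the subunit of the PA200 cap, came next, at 127 and 99.9 CPM in shNC_ATRA and 148 and 143 CPM in shKDM3B_ATRA (0.36, SE 0.17). The 8 lid subunits ranged from -0.54 to 0.03 and the 7 alpha subunits from -0.30 to 0.21.

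Genes that work with the proteasome were counted from a list of 33 names, of which 30 were tested within a treatment and 29 across treatments. Without ATRA, 0 of 30 were called in shKDM3B (3.48% of all genes higher, 3.53% lower), and with ATRA 0 were higher (2.42%) and 1 lower (4.37%), UFD1, a cofactor of the unfoldase VCP (log2 fold change -0.64, SE 0.17). With ATRA in shNC, 1 of 29 was higher (15.0% of all genes) and 0 lower (10.8%). AKIRIN2, which brings proteasomes into the nucleus, rose from 36.1 and 39.7 CPM to 49.8 and 76.5 CPM (log2 fold change 0.77, SE 0.27). Its higher treated value was that of shNC_ATRA replicate 2, where 50.02% of reads fell outside genes. With ATRA in shKDM3B, 2 of 29 were higher (24.0% of all genes) and 1 lower (18.3%). Those higher were UBQLN2, which carries ubiquitinated proteins to the 19S cap (0.69, SE 0.13), and UBA6, a ubiquitin-activating enzyme (0.67, SE 0.15), and VCP itself was the lower one (-0.68, SE 0.16). In both ATRA comparisons the share of the list called was below that of all genes. The medians of the list were 0.00, 0.01, -0.03 and -0.14 in the order of these comparisons.

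Of 6 partners and regulators of the immunoproteasome, 4 were tested. With ATRA, 3 of the 4 were called higher in shNC (15.0% of all genes) and 3 in shKDM3B (24.0%). IRF1, a transcription factor of the interferon response, rose from 47.6 and 30.3 CPM to 283 and 223 CPM in shNC (log2 fold change 2.73, SE 0.29) and from 17.9 and 23.8 CPM to 223 and 228 CPM in shKDM3B (3.48, SE 0.16). B2M, the light chain of MHC class I, rose from 437 and 368 CPM to 631 and 1291 CPM in shNC (1.30, SE 0.35) and from 247 and 263 CPM to 715 and 813 CPM in shKDM3B (1.63, SE 0.12). The higher B2M value in shNC_ATRA was that of replicate 2, where 50.02% of reads fell outside genes. TAP2, a subunit of the peptide transporter, was the other gene called, at or below 4.11 CPM in every library. It lies within 1 Mb of PSMB9, in the stretch of low counts described above, and the part of this in its call was not tested. NLRC5, an activator of MHC class I genes, was not called, at 146 to 160.05 CPM in shNC and 112 to 149 CPM in shNC_ATRA. Without ATRA, knockdown called 2 of the 4 lower (3.53% of all genes), IRF1 (log2 fold change -0.90, SE 0.26) and B2M (-0.66, SE 0.15), with adjusted p = 0.251 and 0.166 by edgeR, and with ATRA it called 0 of the 4 (2.42% of all genes higher, 4.37% lower), by edgeR.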

How the data were processed

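RNA-seq was analysed for 8 libraries of NB4 cells, 2 in each of 4 groups taken from the sample titles. Per the study's methods, Trim Galore was used for trimming, HISAT2 for alignment on hg38 and HTSeq with a RefSeq annotation for counting. The authors deposited whole-number counts without normalization, listing 56470 names for each untreated and 56609 for each ATRA library. The name list thus differed between untreated and ATRA libraries. An effect of that difference cannot be told apart from ATRA treatment, and it was not tested. Tool versions and the strand setting are not given in the sources used here.

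Each pair of groups was fitted with edgeR 4.0.16 (R 4.3.3) on the names listed in its 4 libraries, by its quasi-likelihood F test after filterByExpr and TMM. Dividing the log2 fold change by the square root of F gave its standard error. Adjusted p-values follow Benjamini and Hochberg over all genes of the fit. All 44 genes passed the filter in every comparison. The filter takes its minimum number of libraries from the group size, but not which group they belong to. The call rule (unadjusted P-value under 0.05, fold change of at least 1.5) follows the study's methods. The interaction was fitted over all 8 libraries. Printed CPM values share a TMM scale over the 37526 common names. Lengths and overlaps come from canonical transcripts of GENCODE v44, promoters from RefSeq.

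Per-library values are given for PSMB5, PSMB6, PSMB7, PSMB10, PSME1, PSME2, the genes called (the 4 largest rises and falls where more than 8 were called) and the 2 largest rises and falls of each comparison. The gene group, the lists and the motifs were chosen with earlier results of these data known. Some names on the lists are not reported here, and the list counts leave them out whatever their values. Alternatives were DESeq2 1.42.0, DESeq2's size factors, library size alone, no low-count filter, all 8 libraries in one fit, the replicate number as a block, other call rules and each library left out in turn.

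Replicate numbers were not taken to pair the libraries, since the study's methods name no pairing. Annotation and figures were processed in Python 3.11.15 (pandas 2.3.3, numpy 2.4.6).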

Additional observations from a re-analysis of the deposited data

Results flagged for a closer look

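In 3 ATRA libraries, a larger share of the reads fell outside genes than in the untreated ones. The share of reads that fell outside annotated genes was 50.02% in shNC_ATRA replicate 2, 51.45% in shKDM3B_ATRA replicate 1 and 51.05% in shKDM3B_ATRA replicate 2. It was 9.36% in shNC_ATRA replicate 1 and at most 9.62% in the 4 untreated libraries. Between shKDM3B_ATRA and shNC_ATRA, the fit without shNC_ATRA replicate 1 holds only libraries with this high share, and gave a median log2 fold change of -0.18 for the proteasome genes, against -0.16 with all 4 libraries. Between shNC_ATRA and shNC, the fit without shNC_ATRA replicate 2 holds only libraries with the low share, and PSMB10, PSME1 and PSME2 were called higher in it. Between shKDM3B_ATRA and shKDM3B, this share and the treatment cannot be told apart.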

How the results depend on the processing

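The rises of PSMB10, PSME1 and PSME2 with ATRA were called under all 10 alternatives in shNC and in shKDM3B cells. Between shKDM3B and shNC, the number of genes called lower was 0 (3.53% of all genes). It was 1 (PSMB3) with no low-count filter (3.06% of all genes), with DESeq2 (1.68%) and with the replicate block (4.53%). Leaving out 1 library gave 0 to 2 (3.15% to 4.82% of all genes), and a median log2 fold change of -0.19 to -0.0078, against -0.08 with all 4. Between shKDM3B_ATRA and shNC_ATRA, 1 gene was called lower (4.37% of all genes), against 0 with library size alone (3.92%). There were 0 at an adjusted p under 0.05 (0% of all genes) and 6 at an unadjusted P-value alone (5.76%). Leaving out 1 library gave 0 to 5 lower, the 5 without shNC_ATRA replicate 2, where the share of all genes called lower also rose, from 4.37% to 13.3%, and 0 to 1 higher, where in that fit the share of all genes rose from 2.42% to 23.2%. Between shNC_ATRA and shNC, 5 genes were called higher and 1 lower. All 8 libraries in one fit gave 0 lower (11.7% of all genes). An adjusted p under 0.05 gave 3 and 0 (7.84% and 5.06%), and library size alone brought the median from 0.09 to -0.0002. Leaving out 1 library gave 3 to 8 higher (6.79% to 21.4% of all genes), 0 to 2 lower (4.11% to 17.0%) and a median of -0.0244 to 0.12. Between shKDM3B_ATRA and shKDM3B, 2 genes were called lower, against 5 at an adjusted p under 0.05 (22.5% of all genes), 8 at an unadjusted P-value alone (25.9%) and 2 to 4 with 1 library left out (16.7% to 21.1%). At an adjusted p under 0.05 the interaction gave 0 genes, as for all 13528 genes (0). With no low-count filter it gave 1, where 69 of all 21090 genes passed.

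Some signs turned. With 1 library left out, the log2 fold change of PSMB7 spanned -0.18 to 0.0488 between shKDM3B and shNC and -0.21 to 0.0549 between shKDM3B_ATRA and shKDM3B, and with library size alone it was -0.0010 between shNC_ATRA and shNC. PSMB6 spanned -0.12 to 0.0318 between shNC_ATRA and shNC, and PSME1 -0.32 to 0.047 between shKDM3B_ATRA and shNC_ATRA. PSMB3 spanned -0.47 to 2.95 between shKDM3B_ATRA and shNC_ATRA and -0.85 to 2.57 between shKDM3B_ATRA and shKDM3B, and turned in both without shKDM3B_ATRA replicate 2. Of 542 values under alternatives, 481 kept their direction and side of the threshold or stayed within the spread, 29 moved, 13 fell below the threshold, 11 passed it and 8 turned. Where no cause is named, the cause was not tested.

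The deviations of same-numbered libraries had correlations across genes of 0.437, 0.0441, -0.103 and 0.223 in the order of the text's knockdown comparisons without and with ATRA and its ATRA comparisons in shNC and shKDM3B. The replicate block changed the number of genes called in the first alone. For shNC_ATRA with shNC, crossed replicate numbers, chosen after seeing the data, gave 5 genes higher and 1 lower (1886 and 1489 of all 12429 genes). A fit with 1 library left out of a group assumes that the lone library varies like the others. With 2 libraries per group, small changes were not detectable.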
